A study of Mus musculus with 2 samples.

Results

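The 40 myeloid and haematopoietic marker transcripts described here are genes of the blood cell surface, of phagocyte killing, of immune receptor signalling and of the leukocyte cytoskeleton. They are 40 of the 35275 genes in the deposited count table, and each was found there by its symbol. They were picked because several of them had more counts in the mutant than in the control library, in cells sorted as negative for CD45. The counts below therefore describe the pattern that chose the genes, and nothing is tested with them.

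RNA was sequenced from mesenchymal stem/progenitor cells (MSPC), the stromal cells of bone marrow that give rise to bone, cartilage and fat. The mice were C57BL/6, all carried Nestin-Cre, and had either normal Ptpn11+/+ (control) or Ptpn11E76K/+, which codes for an activated form of the phosphatase SHP2 (mutant). Sorted cells lacked CD45, Ter-119 and CD31, the surface markers of leukocytes, erythroid cells and endothelium, and carried CD140 and Sca-1. In this model the Cre recombinase is driven by nestin sequences, and the sources used here give no age and no number of animals behind a library. The labels list 1 sample per genotype whereas the design text mentions 2 replicates, and the table has 1 column per genotype.

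Myeloid cells, which include monocytes, macrophages and granulocytes, descend from blood stem cells and engulf and kill microbes. They bind targets through beta-2 integrins and Fc receptors, relay the signal through adaptors with an immunoreceptor tyrosine-based activation motif (ITAM), and kill with lysozyme, proteases and oxygen radicals. Mesenchymal stromal cells are non-haematopoietic and are separated from blood cells in sorting by the absence of CD45, the product of Ptprc.

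Depth was 22328659 counts for the control and 18010963 for the mutant, and 17887 and 17185 genes had at least 1 count. Levels are given as CPM, the counts of a gene relative to its library's total after TMM scaling, and a pair of values is always control first and mutant second. A ratio is mutant to control with its 95% exact Clopper-Pearson interval, which covers counting error only and compares these 2 libraries, not the genotypes. There are no replicates, so no test between genotypes could be run and no difference below has a replicate check. A gene was called measured with 20 or more counts over both libraries, and it was called if all of its interval was past 2-fold in 1 direction. Against 0 counts the fold was computed with 3 counts in place of 0 and is written as "at least". That value is a convention, not a limit. The exact lower bound of the ratio stands beside it, is smaller, and is the one that covers counting error. Of 15 stromal marker genes, all had a count in both libraries, which summed to 1021962 and 663767, and of 14 measured 2 were called higher and 4 lower. In bulk RNA, fewer cells of a type and less RNA per cell cannot be told apart.

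In the control library the members ranged from 0 to 5148 counts. The median member had 1 count in the control and 18 in the mutant. Of all 35275 genes, 17388 had 0 counts in the control, and 16142 of these had 0 in both libraries. No count was found in the control for 17 of 40 members, and 0 members were without counts in both. Of those 17, Blnk, C1qa, Ctss, Cyth4, Itgam, Itgb2, Laptm5 and Tyrobp had 20 or more counts in the mutant, Adgre1, C1qb, C1qc, Cd52, Cd53, Dock2, Ncf1 and Was had 4 to 19, and Ncf4 had 3. Only Aif1 and Alox5 had 0 counts in the mutant, with 1 and 6 in the control. At the other end, Arhgdib, Cyba and Cd14 were above 5 CPM in the control.

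After scaling, 32 members had a higher level in the mutant and 8 a lower one, beside 9198 and 9935 of all genes with a count. Of the 40, 23 were measured, and 14 of those were called higher and 0 lower. The other 17, among them Ptprc, C1qb and C1qc, had too few counts for a call, also where a fold is printed below. Over all 13142 measured genes, 6.98% were called higher and 8.29% lower. The genes were chosen on this contrast, so the count of 14 is not read against that share. Besides, 15 of the 23 reached 20 counts in the mutant library only, which favours a higher mutant level. Of these 15, Fcer1g and Coro1a were not called. Plek and Tlr7 reached 20 counts in the control only.

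**Figure D1:**
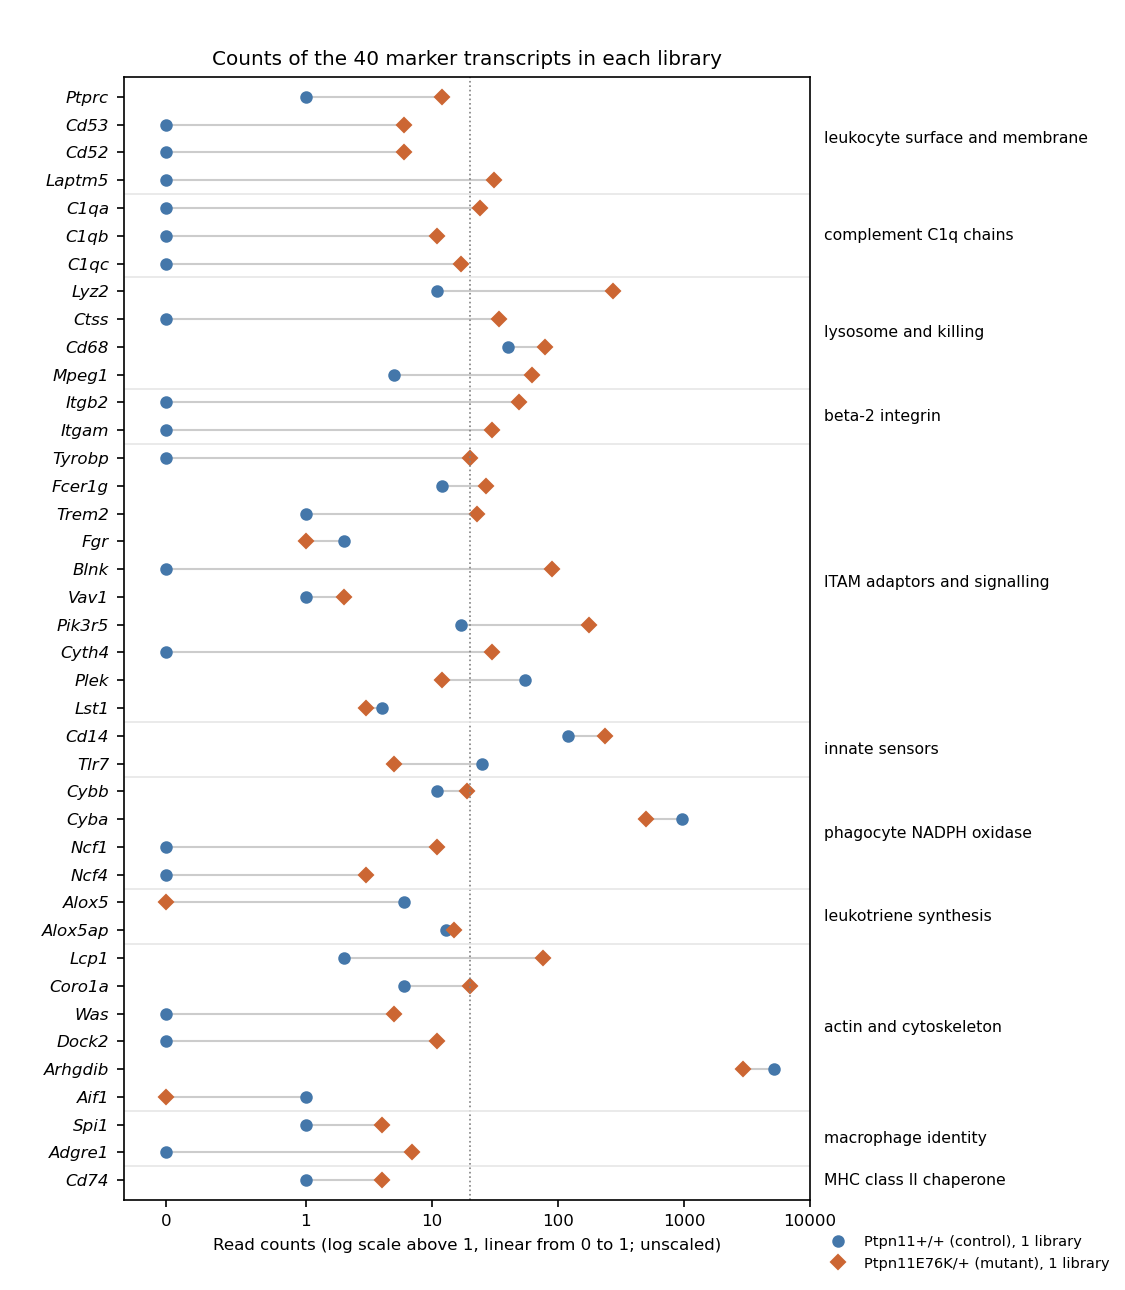
Unscaled read counts of the 40 members, grouped by role, in the control (circles) and mutant library (diamonds), on an axis that is linear from 0 to 1 and logarithmic above. The dotted line marks 20 counts, and 17 circles stand at 0 against 2 diamonds.

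Promoter sequences are shown for the members with 0 control counts and 20 or more mutant counts that have an entry in the RefSeq table (build GRCm38.p6), and for the C1q chains with an entry. They show the DNA next to the start sites of genes that gave reads in only 1 of the libraries. Each line holds the 250 bases before the annotated start, 5′ to 3′ on the gene's own strand. Capitals mark GAGGAA or its reverse complement, a form of the ETS factor letters GGAA that PU.1 binds. PU.1 (product of the member Spi1) is a master regulator of myeloid cells. Shorter GGAA matches are not marked.
Itgam, chr7:128062390-128062639, plus strand: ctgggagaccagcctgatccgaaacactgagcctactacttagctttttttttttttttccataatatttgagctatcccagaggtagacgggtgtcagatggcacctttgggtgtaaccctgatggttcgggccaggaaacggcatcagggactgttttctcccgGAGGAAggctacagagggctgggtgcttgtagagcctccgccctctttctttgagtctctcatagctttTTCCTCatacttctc
Laptm5, chr4:130913066-130913315, plus strand: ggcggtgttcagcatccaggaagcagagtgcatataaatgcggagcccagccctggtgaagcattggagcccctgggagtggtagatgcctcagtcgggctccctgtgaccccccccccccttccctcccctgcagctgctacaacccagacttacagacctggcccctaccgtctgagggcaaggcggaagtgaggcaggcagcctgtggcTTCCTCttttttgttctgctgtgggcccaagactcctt
Ctss, chr3:95526536-95526785, plus strand: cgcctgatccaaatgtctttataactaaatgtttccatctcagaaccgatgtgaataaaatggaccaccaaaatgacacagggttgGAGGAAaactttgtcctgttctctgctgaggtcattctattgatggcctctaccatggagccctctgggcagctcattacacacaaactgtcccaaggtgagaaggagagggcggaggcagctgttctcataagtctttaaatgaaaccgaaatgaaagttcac
Cyth4, chr15:78596797-78597046, plus strand: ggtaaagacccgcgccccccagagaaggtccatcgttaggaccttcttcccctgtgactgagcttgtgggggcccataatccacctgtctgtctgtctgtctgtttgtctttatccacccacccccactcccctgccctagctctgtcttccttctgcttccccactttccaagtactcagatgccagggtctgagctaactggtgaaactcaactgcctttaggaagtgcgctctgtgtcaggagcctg
Blnk, chr19:40994222-40994471, minus strand: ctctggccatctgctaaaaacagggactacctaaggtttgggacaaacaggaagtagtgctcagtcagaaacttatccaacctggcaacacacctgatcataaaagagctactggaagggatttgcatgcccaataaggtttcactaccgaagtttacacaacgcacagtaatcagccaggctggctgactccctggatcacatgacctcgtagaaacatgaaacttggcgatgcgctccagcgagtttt
C1qb, chr4:136886201-136886450, minus strand: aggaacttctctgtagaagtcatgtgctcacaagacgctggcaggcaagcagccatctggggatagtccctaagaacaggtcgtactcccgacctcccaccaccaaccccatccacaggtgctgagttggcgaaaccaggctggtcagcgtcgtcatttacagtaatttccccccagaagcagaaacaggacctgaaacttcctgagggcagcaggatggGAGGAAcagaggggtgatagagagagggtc
C1qc, chr4:136892915-136893164, minus strand: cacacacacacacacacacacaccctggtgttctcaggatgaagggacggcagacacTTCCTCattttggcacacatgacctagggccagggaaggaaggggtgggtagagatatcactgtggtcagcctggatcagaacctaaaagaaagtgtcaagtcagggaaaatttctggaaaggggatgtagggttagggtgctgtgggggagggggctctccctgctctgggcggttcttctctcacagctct
In these stretches GAGGAA was found at 2 places in Itgam, at 1 each in Laptm5, Ctss, C1qb and C1qc, and at 0 in Cyth4 and Blnk. The Cyth4 and Blnk stretches do hold the shorter GGAA.

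RefSeq windows of 300 bases, from 250 before to 50 after the start, were found for 28 of the 40 members, some with several starts. GAGGAA on either strand was present in 19 of 33 member windows (57.6%) and in 9289 of all 32851 windows (28.3%). Counted per gene, it was present for 19 of 28 members (67.9%) and for 31.3% of all genes. The AP-1 letters TGANTCA, where N is any base, were present in 3 of 33 member windows (9.09%) and in 7.81% of all windows. The C/EBP-like letters TTNNNCAA were present in 13 of 33 member windows (39.4%) and in 36.7% of all. Both strands were read for each motif, overlaps between motifs were not removed, and a match describes letters and is not a binding site.

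Transcripts of the leukocyte membrane were nearly absent from the control. Ptprc, which encodes CD45, had 1 and 12 counts, or 0.0432 and 0.69 CPM (ratio 16, 2.36 to 682). With under 20 counts over both libraries it was not measured and not called. Laptm5, a lysosomal membrane protein of blood cells that dampens antigen receptors, had 0 and 31 counts (1.78 CPM, at least 13.7-fold higher, exact lower bound 10.5). Cd53, a tetraspanin, had 0 and 6 counts, and so did Cd52, a small lipid-anchored glycoprotein. For each of those 2 the fold was at least 2.66 with an exact lower bound of 1.57. The 4 membrane genes together had 1 and 55 counts, and 12 of the 55 were of Ptprc.

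C1qa, C1qb and C1qc encode the 3 chains of C1q, the recognition molecule of classical complement, which is made chiefly by macrophages. All had 0 counts in the control, against 24, 11 and 17 in the mutant. C1qa stood at 1.38 CPM in the mutant and was at least 10.6-fold higher (exact lower bound 8.01). C1qc stood at 0.978 CPM (at least 7.54-fold, 5.49) and C1qb at 0.633 CPM (at least 4.88-fold, 3.34). Per kilobase of transcript, the mutant level of C1qa was 2.28 times that of C1qb (1.08 to 5.16) and 1.63 times that of C1qc (0.841 to 3.24). C1qc and C1qb could not be placed in order, with a ratio of 1.4 (0.618 to 3.3). The 52 C1q counts of the mutant amount to 2.99 CPM.

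Among genes of the lysosome and of killing, Lyz2, the lysozyme of macrophages and granulocytes, had the most counts. It had 11 and 276 counts (0.476 and 15.9 CPM), a ratio of 33.4 (18.4 to 67.6). Its close paralogue Lyz1 had 0 counts in both. Ctss, a lysosomal protease that trims the class II invariant chain, had 0 and 34 counts (1.96 CPM in the mutant, at least 15.1-fold, exact lower bound 11.6). Mpeg1, the pore former perforin-2 of phagocytes, had 5 and 62 counts, or 0.216 and 3.57 CPM (ratio 16.5, 6.7 to 52.6). Cd68, a glycoprotein of lysosomes and the member of this group most abundant in the control, had 40 and 79 counts (1.73 and 4.54 CPM). Its ratio of 2.63 (1.77 to 3.95) was not called, and its interval lies wholly below those of Lyz2 and Mpeg1.

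The beta-2 integrin CD11b/CD18, which serves adhesion and uptake of complement-coated particles, was represented by both of its chains. Itgb2 (CD18) had 0 and 49 counts (2.82 CPM, at least 21.7-fold, exact lower bound 17). Itgam (CD11b) had 0 and 30 counts (1.73 CPM, at least 13.3-fold, 10.2). In GENCODE M21 it shares 3450 exon bases on the same strand with the gene model Gm49368, which is not analysed here. Together these chains gave 0 and 79 counts, which is 4.54 CPM in the mutant. Per kilobase, the shared chain Itgb2 exceeded Itgam in the mutant by 2.57 times (1.6 to 4.2). Itgax, the CD11c chain of dendritic cells and some macrophages, had 0 counts in both libraries. The kindlin-3 gene Fermt3, which activates blood cell integrins, had 11 and 30 counts (ratio 3.63, 1.77 to 8.02).

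Of 10 other genes of beta-2 integrin function, 4 were measured and 0 were called in either direction. Rassf5 (RAPL), which links Rap1 to these integrins, had 198 and 341 counts (ratio 2.29). Icam1, the endothelial and stromal ligand, had 114 and 31 counts and was 2.76-fold lower in the mutant (1.84 to 4.26), a difference that was called only when totals left out the most abundant genes.

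The 10 adaptors and signalling members included the highest ratio bound of all members and also genes with lower levels in the mutant. Blnk, an adaptor that joins Syk to downstream enzymes, best known in B cells and also present in macrophages, had 0 and 89 counts (5.12 CPM, at least 39.5-fold, exact lower bound 31.4). That is the highest lower bound among the 40 genes. Tyrobp (DAP12), an ITAM adaptor of myeloid and NK cells, had 0 and 20 counts (1.15 CPM, at least 8.87-fold, 6.57). Trem2, a lipid-sensing receptor that signals through Tyrobp, had 1 and 23 counts, or 0.0432 and 1.32 CPM (ratio 30.6, 4.97 to 1260).

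Tyrobp and Trem2 were in the mutant at levels per kilobase in a ratio of 1.68 (0.874 to 3.19), so their order is not resolved. Fcer1g, the common Fc receptor gamma chain and the other ITAM adaptor among the members, had 12 and 27 counts (0.519 and 1.55 CPM). Its ratio of 2.99 (1.47 to 6.49) was not called, and unlike Tyrobp it had counts in the control. Per kilobase in the mutant, Tyrobp stood at 0.897 times Fcer1g (0.477 to 1.66).

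Further along the signalling path, Pik3r5, the regulatory subunit of the leukocyte PI3-kinase gamma, had 17 and 177 counts, or 0.735 and 10.2 CPM (ratio 13.8, 8.41 to 24.3). Cyth4, an exchange factor for ARF GTPases in leukocytes, had 0 and 30 counts (1.73 CPM, at least 13.3-fold, 10.2). Plek (pleckstrin), the protein kinase C substrate of platelets and leukocytes, went the other way, with 55 and 12 counts, or 2.38 and 0.69 CPM (3.45-fold lower, 1.82 to 7.07, not called). Plek shares 199 exon bases with the opposite-strand gene Cnrip1 (113 and 44 counts), and the strand setting of the counting is not given, so their reads may be mixed. Lst1, Fgr and Vav1, an immune membrane protein, a Src-family kinase and a Rac exchange factor, had 4 and 3, 2 and 1, and 1 and 2 counts. These are at or near the floor in both libraries and give no order.

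The receptors and kinases around these adaptors were 19 genes, of which 5 were measured, 1 was called higher and 0 lower. By gene, 14 had a higher CPM in the mutant, 0 a lower one and 5 had 0 counts in both. Several of the 14 had under 20 counts, and all genes with a count split into 9198 higher and 9935 lower. The one called was Fcgr3, a low-affinity IgG receptor that uses the Fcer1g chain, with 1 and 20 counts (ratio 26.6, 4.26 to 1103). Lyn, a Src-family kinase, had 201 and 251 counts (ratio 1.66, not called). The IgG receptors Fcgr1 and Fcgr4 and the fungal receptor Clec7a had 0 counts in both libraries.

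The innate sensors Cd14 and Tlr7 had ratios on opposite sides of 1. Cd14, the co-receptor for bacterial lipopolysaccharide, had 121 and 237 counts (5.23 and 13.6 CPM), a ratio of 2.61 (2.08 to 3.27). It was called higher, but its lower bound is near the limit, and on plain total counts the log2 ratio of 1.28 was no longer called. Tlr7, the endosomal sensor of single-stranded RNA, had 25 and 5 counts, or 1.08 and 0.288 CPM (3.76-fold lower, 1.41 to 12.6, not called). Of 16 other sensor genes, 11 were measured, 1 was called higher and 0 lower. That gene was Tlr1, a partner of Tlr2 in lipoprotein sensing, with 27 and 83 counts (ratio 4.09, 2.62 to 6.57). Tlr4, which acts with Cd14, had 813 and 431 counts (1.42-fold lower), and Unc93b1, which carries Tlr7 to endosomes, had 541 and 246 (1.65-fold lower).

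**Figure D2:**
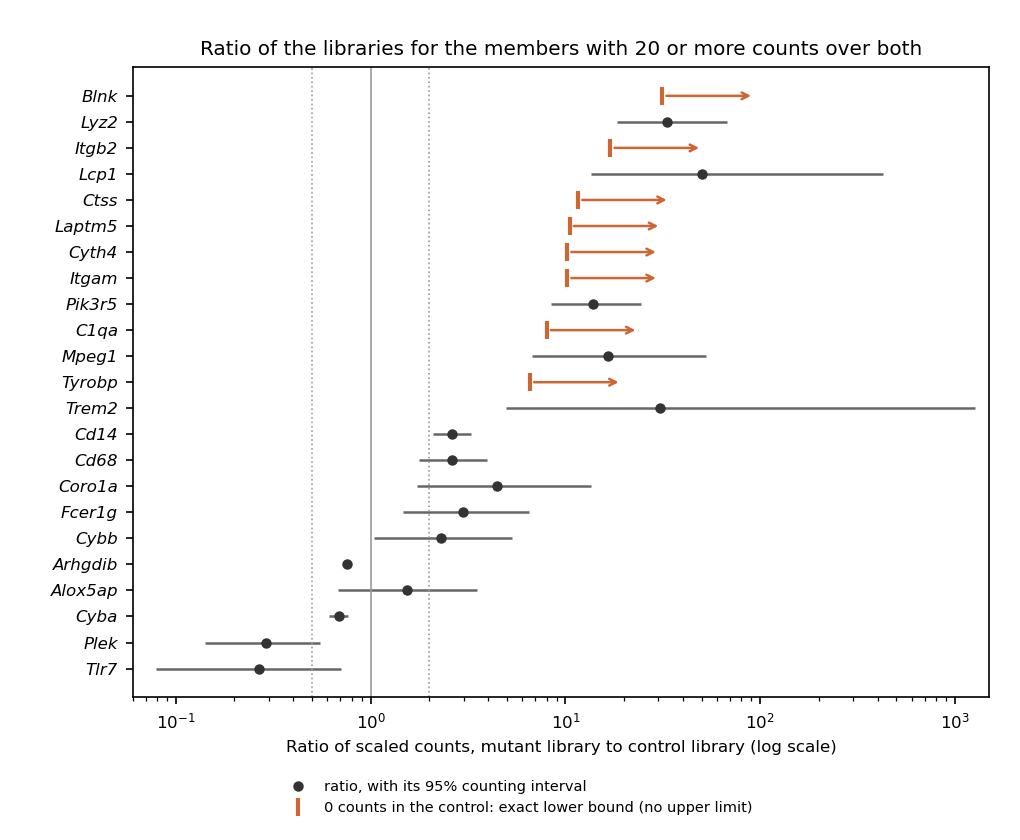
Ratio of scaled counts, mutant to control library (log axis), for the 23 members with 20 or more counts over both, with the 95% counting interval. Arrows start at the exact lower bound of members with 0 control counts and have no upper limit, dotted lines mark 2-fold, and Plek and Tlr7 lie farthest to the left.

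The phagocyte NADPH oxidase makes superoxide with a membrane pair and cytosolic subunits. Cyba (p22phox), the membrane partner that many cell types express, had 967 and 497 counts, or 41.8 and 28.6 CPM (1.46-fold lower, 1.31 to 1.63). Cybb (gp91phox), the catalytic subunit of phagocytes, had 11 and 19 counts, or 0.476 and 1.09 CPM (ratio 2.3, 1.04 to 5.34, not called). Per kilobase, Cyba exceeded Cybb 561 times in the control (312 to 1129) and 167 times in the mutant (106 to 280), so the partners were at unlike levels in both libraries.

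The cytosolic subunits were few. Ncf1 (p47phox) had 0 and 11 counts (0.633 CPM in the mutant, at least 4.88-fold, exact lower bound 3.34), but shares 408 exon bases with Gtf2ird2 on the opposite strand (284 and 189 counts). Ncf4 (p40phox) had 0 and 3 counts, which gives no fold. The GTPase Rac2 of blood cells, not a member and picked after its values were seen, had 0 and 4. The widely expressed Rac1 had 8149 and 8856 counts (ratio 1.45), and Nox4, a related oxidase that also pairs with Cyba, 357 and 178. Of 9 such partner genes 6 were measured and 0 were called.

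The leukotriene pair was sparse in both libraries. Alox5 (5-lipoxygenase) had 6 and 0 counts, and the exact lower bound of its fold, 0.885, includes equal levels. Its helper Alox5ap (FLAP) had 13 and 15 counts (ratio 1.53, 0.681 to 3.5, not called). In the control, Alox5ap stood at 4.89 times Alox5 per kilobase (1.73 to 15.7). Upstream of both, Pla2g4a, the phospholipase that frees arachidonic acid, had 744 and 1234 counts (ratio 2.21, 2.01 to 2.42). It was called higher, but lost that call under 3 of the 4 other scalings. Downstream, Lta4h had 1396 and 1432 counts (ratio 1.36, not called).

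The cytoskeleton genes spanned the full range of levels. Lcp1 (L-plastin), the actin bundler of leukocytes, had 2 and 76 counts, or 0.0865 and 4.37 CPM (ratio 50.5, 13.5 to 425). Coro1a, an actin-binding coronin of blood cells, had 6 and 20 counts (ratio 4.43, 1.72 to 13.5, not called), and shares 26 exon bases with Bola2 on the opposite strand (611 and 962 counts). Dock2, a Rac exchange factor for leukocyte migration, had 0 and 11 counts (at least 4.88-fold, exact lower bound 3.34). Was, the protein of Wiskott-Aldrich syndrome, had 0 and 5 counts (at least 2.22-fold, 1.22). Aif1 (Iba1), a macrophage and microglial actin-binding protein, had 1 and 0 counts.

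Arhgdib, a GDP dissociation inhibitor that holds small GTPases of the cytoskeleton in the cytosol and is usually listed as a blood cell gene, was the most abundant member in both libraries. It had 5148 and 2934 counts, or 223 and 169 CPM (1.32-fold lower, 1.26 to 1.38). These control reads stood beside 1 read of Ptprc, and which cells they came from was not tested. Of 13 other actin regulators of blood cells, 5 were measured, 2 were called higher and 0 lower. Elmo1, a Dock2 partner, had 21 and 76 counts (ratio 4.81, 2.94 to 8.22), and Dock8 had 82 and 219 (3.55, 2.74 to 4.64). Evl, an actin elongation factor, had 1140 and 483 (1.77-fold lower, 1.59 to 1.98), and Wipf1, the partner of the Was protein, had 1096 and 765 (1.08-fold lower, 0.981 to 1.18). The counts of the 13 genes had a summed ratio of 0.909 (0.853 to 0.969), and Evl and Wipf1 held most of them. By gene, 8 had a higher CPM in the mutant, 3 a lower one and 2 had 0 counts in both.

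The members that name macrophages most directly had few reads. Spi1, the transcription factor PU.1, had 1 and 4 counts (ratio 5.32, 0.527 to 262), which does not separate the libraries. Adgre1, the F4/80 antigen of mouse macrophages, had 0 and 7 (at least 3.1-fold, exact lower bound 1.92). Cd74, the class II invariant chain, had 1 and 4 counts as well. Beside it, H2-Ab1, a class II beta chain, went from 58 counts to 0 (at least 14.5-fold lower, exact lower bound 11.4), and H2-Aa had 0 in both. Of 8 class II pathway genes outside the members, 5 were measured, 0 were called higher and 1 lower. None of 12 other myeloid transcription factors was called, and 7 were measured. Among them Runx1 had 696 and 957 counts (ratio 1.83) and Cebpb 613 and 622 (1.35), whereas Maf had 1578 and 690 (1.72-fold lower, 1.57 to 1.88) and Irf5 269 and 138 (1.47-fold lower, 1.19 to 1.81). The median log2 ratio of the 7 was 0.15.

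Among complement genes that act with C1q, the receptors and the protease C1s1 had ratios in opposite directions. C3ar1, the C3a receptor of myeloid cells, had 2 and 215 counts (ratio 143, 39.1 to 1188). C5ar1, the C5a receptor, had 13 and 334 counts (34.2, 19.7 to 64.9), and C3 itself had 104 and 569 (7.28, 5.9 to 9.06). C1s1, a protease that binds C1q and is made by stromal cells, had 781 and 232 counts (2.53-fold lower, 2.18 to 2.94). Of this list of 10 genes, 9 were measured, 3 called higher and 2 lower. Over all 107 partner genes of the members, 55 were measured, 8 were called higher and 3 lower, and the median log2 ratio of the measured was 0.05, beside 0.01 over all measured genes. Among partners with any count, 57 had a higher CPM in the mutant and 32 a lower one. Their median log2 ratio was 0.41, beside -0.04 over all genes with a count.

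Summed, the members held small and similar shares of the libraries. Their counts came to 6451 and 4869, or 0.0289% (0.0282 to 0.0296) and 0.027% (0.0263 to 0.0278) of all counts, and the scaled ratio was 1 (0.967 to 1.04). That ratio fell to 0.919 with totals that leave out the most abundant genes, so its direction depends on the scaling. Arhgdib alone made up 79.8% (control) and 60.3% (mutant) of member counts, and Cyba 15% and 10.2%. Without Arhgdib the ratio was 1.98 (1.84 to 2.12).

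The 37 members under 5 CPM in the control had 215 counts there and 1201 in the mutant, or 9.3 and 69.1 CPM (ratio 7.43, 6.42 to 8.63). Arhgdib, Cyba and Cd14, the other 3, had 6236 and 3668 counts and were 1.28-fold lower in sum (1.23 to 1.33). Of the 1201 mutant counts, Lyz2 gave 23% and Pik3r5 14.7%, and without Lyz2 the ratio was 6.03 (5.18 to 7.05). The split at 5 CPM uses the same counts, so these values are a description. Over the 40 genes the median log2 ratio was 3.81, and it was 2.29 over the 38 for which a ratio remains with zeros set to the floor, and for all genes with a count it was -0.04.

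Levels per kilobase order the members in the mutant. Arhgdib stood first at 141 CPM per kilobase, followed by Cyba at 38.4, Lyz2 at 12.1, Cd14 at 8.31 and Cd68 at 3.69. Blnk (2.44), Pik3r5 (2.33), Fcer1g (2.27) and Tyrobp (2.04) followed closely, and Ptprc was at 0.136. In the control, Arhgdib (187), Cyba (56.2), Cd14 (3.19) and Cd68 (1.41) led, with Lyz2 at 0.361. At 1 CPM or more, without regard to length, there were 20 members in the mutant and 6 in the control.

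**Figure D3:**
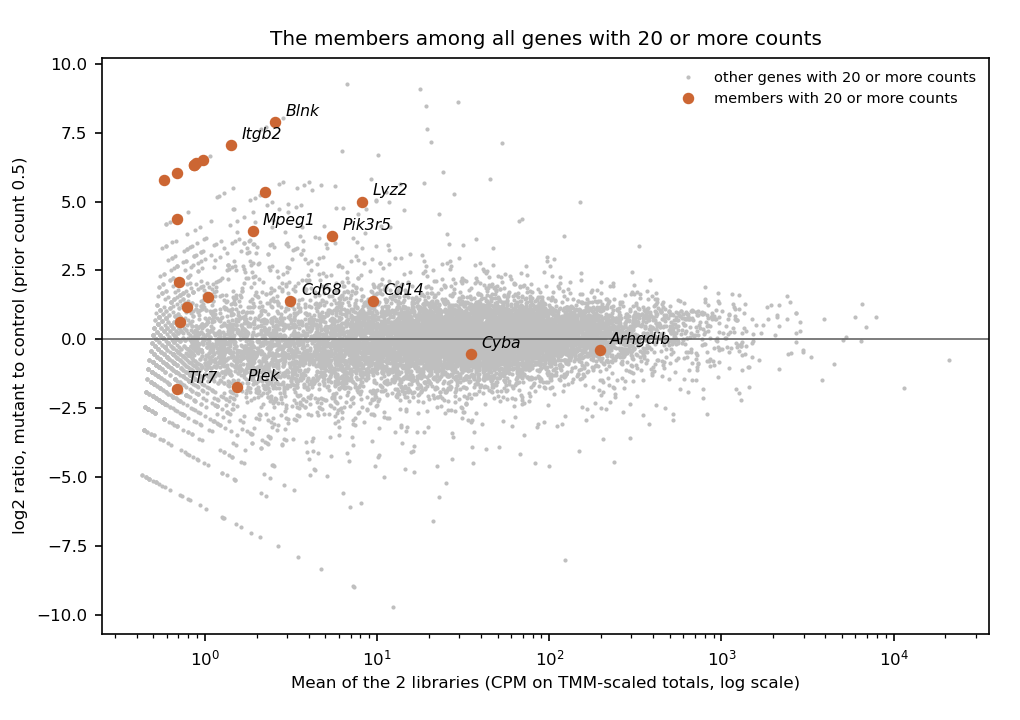
Log2 ratio of mutant to control (prior count of 0.5 per library) against the mean level in CPM on a log axis, for all 13142 measured genes (grey) and the 23 measured members (orange). Members at 0 in the control form the diagonal line at the upper left, and Arhgdib and Cyba lie below 0.

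Of the 13142 measured genes, 36 had 0 counts in the mutant and 19 (0.145%) had 0 in the control. Of those 19, 8 were members, which the choice of members fixes. The other 11, looked up after their values were seen, include the chemokine Ccl3 (233 mutant counts) and Cd300lb (74), an activating receptor of myeloid cells. They also include Lce1h (89), Lce1f (24), Sprr2h (99) and Kprp (37), genes of the cornified skin barrier, the cadherin Fat2 (90) and the adenosine receptor Adora2a (31). The genes without control reads thus included blood cell genes and genes of other tissues.

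Marker genes of single blood lineages were read beside the members. Of 28 monocyte and macrophage markers outside the members, 8 had 0 counts in both libraries, among them Marco, Vsig4, Timd4, Ccr2 and Ms4a7. Cx3cr1, the fractalkine receptor of monocytes, had 3 and 20 counts (ratio 8.87) and Apoe 63 and 220 (4.65). Csf1r, named after its values were seen, had 149 and 229 counts (ratio 2.04, 1.66 to 2.53, not called). Of this list 19 genes had a higher CPM in the mutant and 1 a lower one, beside 9198 and 9935 of all genes with a count. Of the 28, 7 were measured, 4 were called higher and 0 lower, and the sum went from 4782 to 7518 counts. Gpnmb (868 and 1716 counts) and Hmox1 (2314 and 4403), which many cells express, made up most of it.

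Markers of granulocytes and lymphocytes had few counts. Of 18 granulocyte markers, 12 had 0 counts in both libraries, and the sums were 63 and 29 counts, of which Lcn2 held 42 and 22. Of 12 B cell markers 9 were at 0 in both, with sums of 10 and 5 counts, fewer in the mutant than the 89 of Blnk alone. Of 18 T and NK cell markers 11 were at 0 in both, with sums of 10 and 10. Of 13 erythroid markers 8 were at 0 in both, and of the sums of 916 and 2013 counts Tfrc, the transferrin receptor of dividing cells, held 892 and 2007.

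Of 16 osteoclast markers 7 were measured and 2 called higher. Igsf23 had 3 and 1029 counts (ratio 456), Ckb 409 and 898 (2.92) and Ctsk 1017 and 1346, whereas Dcstamp, Ocstamp and Calcr were at 0 in both. Of 20 genes shared by many blood cells, 9 of them already counted in the partner lists, 4 were measured, 1 was called higher and 1 lower. A higher CPM in the mutant was found for 14 of the 20 and a lower one for 3, beside 9198 and 9935 of all genes. The one called higher was Ptpn7, a leukocyte phosphatase, with 6 and 23 counts (ratio 5.1, 2.02 to 15.3), a call lost under 3 of the 4 other scalings. Lsp1, a leukocyte actin-binding protein and the one called lower, had 1343 and 254 counts (3.97-fold lower), against the direction of most of that list. What part other cell types in the sorted cells have in the member counts was not tested.

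**Figure D4:**
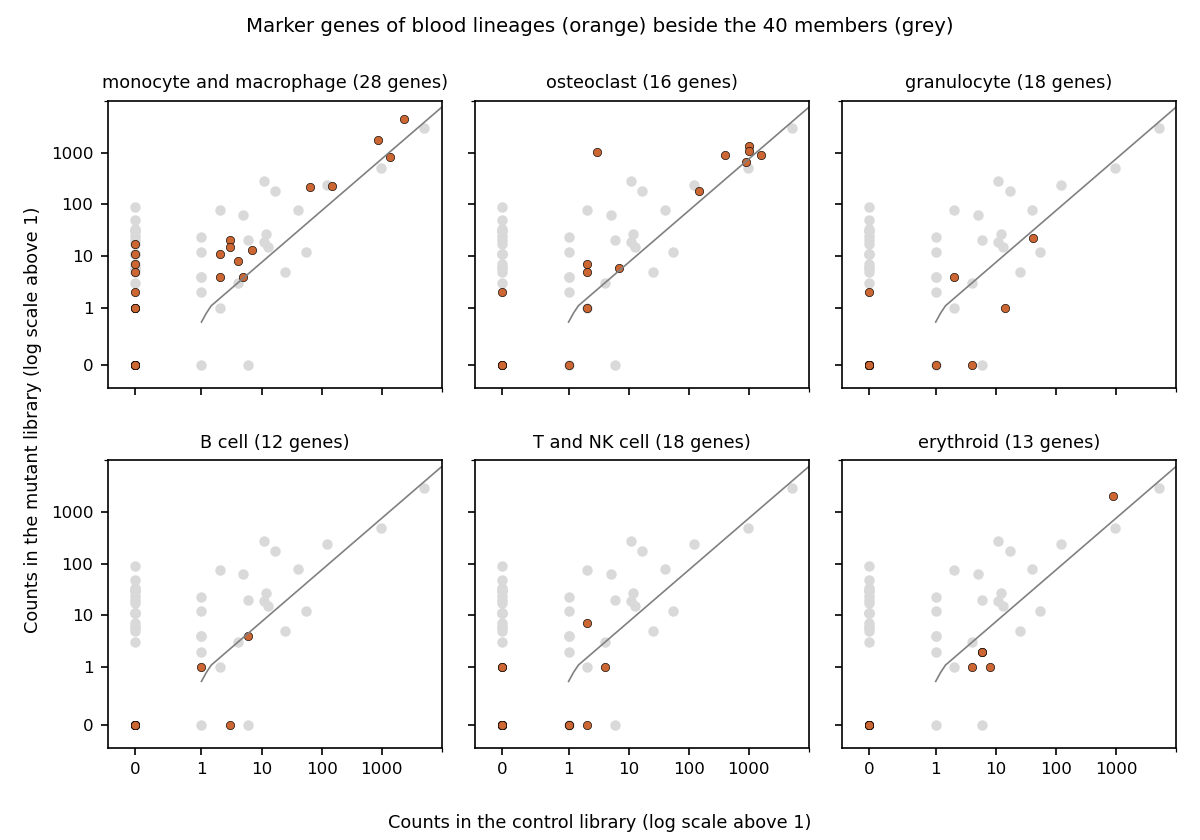
Counts of marker genes of 6 blood lineages (orange) and of the 40 members (grey) in the control library (x axis) and the mutant library (y axis), both linear from 0 to 1 and logarithmic above. The line marks equal scaled levels, and most granulocyte, B cell, and T and NK cell markers lie near the origin, unlike the granulocyte marker Lcn2 (42 and 22 counts).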

How the data were processed

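Raw read counts per gene, as whole numbers, were deposited by the authors for 35275 Ensembl identifiers and 2 libraries. CASAVA, TopHat, edgeR and mm9 are named without versions per the submitters' processing notes. The sources used here do not name the counter, annotation release or strand setting, so reads of overlapping or near-identical genes may be shared. A symbol was found for 34490 identifiers, and 785 were kept without one. Totals were scaled with TMM in edgeR 4.0.16 and R 4.3.3 (factors 1.0358 and 0.9654), so that 3 counts, the floor, are 0.13 (control) and 0.173 CPM (mutant). Intervals came from SciPy 1.17.1 and were checked on simulated data, and DESeq2 1.42.0 gave alternative size factors. Levels per kilobase use the longest coding transcript in GENCODE M21, which is on another build than mm9. Promoters are RefSeq's on GRCm38.p6. Library size and depth limit precision for genes with few counts, and intervals and exact bounds cover counting error only. The members and lists were chosen with earlier results of these data known. All members are given, and up to 4 measured genes of each other list, ordered by interval bound, with markers at 0 in both; a few of these are not reported here.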

Additional observations from a re-analysis of the deposited data

How the results depend on the processing

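With 1 library per genotype, leaving out a replicate was not possible, and no paired analysis was possible because each genotype has 1 library. The 14 members called higher became 13 with total counts, with totals that leave out the most abundant genes, at 4-fold and with a 99% interval, 19 with no minimum count, 16 at 1.5-fold and 6 with a minimum of 50 counts, where fewer genes enter. The 0 called lower became 1 (Plek) at 1.5-fold. The summed member ratio of 1 was 0.936 with total counts and 0.919 with totals that leave out the most abundant genes, settings that move the median log2 ratio of all genes from 0.01 to -0.10 and -0.12. It was 1.98 without Arhgdib and 7.43 without members at 5 CPM or more in the control. That 7.43 was 6.03 without Lyz2 and 5.32 without Lyz2 and Pik3r5, alternatives chosen after seeing the data. The median log2 ratio of 3.81 was 3.71 with total counts, 3.69 without the most abundant genes, 2.41 with a prior count of 2, 3.92 over measured members and, as a setting also added after seeing the data, 2.29 with zeros at the floor. Of single measured members, under the 4 other scalings, only Cd14 lost its call, with total counts (log2 1.28) and without the most abundant genes (1.25). Of genes outside the members, Pla2g4a and Ptpn7 lost theirs under 3 scalings each, and Icam1 gained one, as lower (log2 -1.58), under totals that leave out abundant genes. Depth limits the 17 members with under 20 counts.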

Other observations

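Some lineage markers that no member stands for also differed between the libraries. Mcpt8, a protease of basophils, had 1 and 41 counts (control, mutant, with a ratio of 54.5, 9.26 to 2206), while 4 of the 9 mast cell and basophil markers had 0 counts in both. The rest of that list did not share its rise, with 7 and 1 counts for Ms4a2, 1 and 0 for Fcer1a, 1 and 1 for Hdc and 0 and 1 for Kit. Ppbp, a platelet chemokine, had 168 and 802 counts (ratio 6.35), whereas Gp1ba, a platelet adhesion receptor, had 57 and 5 (8.57-fold lower). Cd34, a surface marker of blood progenitors that endothelium and some stromal cells also carry, had 578 and 1765 counts (ratio 4.06), the one gene called of 5 measured on a list of 13 stem and progenitor markers. Plvap, an endothelial gene, had 6 and 27 counts (ratio 5.99), and the 12 endothelial markers summed to 31 and 71 counts. Of the 12, 6 had a higher CPM in the mutant, 3 a lower one and 3 had 0 counts in both. The lower ones were Pecam1 (CD31) with 5 and 2 counts, Esam with 5 and 0 and Tek with 1 and 0. Of 15 stromal genes 14 were measured, 2 were called higher and 4 lower. Dcn, the matrix proteoglycan decorin, was 5.59-fold lower in the mutant, Cxcl12, the niche chemokine, 3.39-fold lower and Prrx1, a mesenchymal transcription factor, 2.75-fold lower. Ly6a, the Sca-1 gene of the sort, named after its values were seen, was 2.67-fold lower, and Nes, the source of the Cre driver, was 2.76-fold higher. These are values of 1 library per genotype, and the part of other cell types in them was not tested.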
